A study of Mus musculus with 9 samples.

Results

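The interferon-gamma response and class I presentation genes examined here are 37 genes chosen by symbol, from the cytokine and its receptor to the peptide-loading machinery of MHC class I and the cytotoxic effectors. Of these, 33 were measured among 19505 genes, each by the row of its symbol with the highest mean over all arrays. Gbp5, Gbp6, Tgtp1 and Nlrc5 were not found under their symbols and were not analysed here. Affymetrix arrays measured RNA of back skin from C57BL/6J mice aged 8 weeks, and all had 5% imiquimod cream applied daily for 7 days. Imiquimod is a Toll-like receptor 7 agonist that induces a psoriasis-like dermatitis. In the stretch group (n = 5) the skin carried a glued plastic device that had been elongated by 10 mm on the first day, and in the no-stretch group (n = 4) the skin was not stretched. The protocol does not say whether the no-stretch skin carried the device, no skin without imiquimod was analysed here, and separate mice are not stated in the labels, so the p-values rest on a spread among samples that may be technical. SE is the standard error and CI the confidence interval. Values are log2 expression values, on which a difference of 1 is a 2-fold change. The labels name no date or batch.

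Interferon-gamma is secreted by T cells and natural killer cells and binds a receptor made of 2 chains, Ifngr1 and Ifngr2. Signalling through the receptor's kinases Jak1 and Jak2 induces the transcription factor Irf1 and switches on guanylate-binding proteins (GBPs), immunity-related GTPases (IRGs), the chemokines that attract T cells through Cxcr3, the immunoproteasome, the peptide transporter TAP and MHC class I chains. Promoters of such genes can hold gamma-activated sites (GAS) and interferon-stimulated response elements (ISRE), the latter bound by IRF factors. Type I interferon, which imiquimod is known to induce through plasmacytoid dendritic cells, acts on many of the same genes.

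Promoter sequence is shown for GTPase members, which shared their highest and lowest arrays, and for Irf1, Psmb8 and B2m. RefSeq promoter windows (GRCm38.p6, 250 bases before to 50 after the start of a gene) were at hand for 28 of the 37 members, 26 of them measured. Gbp4, Gbp6, Gbp8, Gbp9, Iigp1, Cxcl11, Ido1, Tap2 and Nlrc5 had no entry. The letters TTCNNNGAA (GAS) and GAAA, any 2 bases, GAAA (ISRE) were searched on both strands, and overlapping matches were allowed. GAS letters were in 8.30% of all 32851 windows and in 9 of 31 windows of members, and ISRE letters in 3.44% of all windows and in 11 of the members' 31. Both were in 0.454% of all windows. A match is only a description of the sequence. Capitals mark the matched letters, and each stretch is written 5′ to 3′ on the strand of the gene.
Igtp (chr11:58199499-58199543, plus strand): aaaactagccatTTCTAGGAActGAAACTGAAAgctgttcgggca
Irgm2 (chr11:58214890-58214934, plus strand): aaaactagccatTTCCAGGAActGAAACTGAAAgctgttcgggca
Gbp7 (chr3:142530218-142530304, plus strand): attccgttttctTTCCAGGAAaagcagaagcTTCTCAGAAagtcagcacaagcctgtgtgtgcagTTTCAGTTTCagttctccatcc
Gbp2 (chr3:142620592-142620625, plus strand): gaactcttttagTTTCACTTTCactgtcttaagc
Gbp3 (chr3:142559987-142560026, plus strand): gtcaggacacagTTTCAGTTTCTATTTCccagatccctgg
Irgm1 (chr11:48871423-48871462, minus strand): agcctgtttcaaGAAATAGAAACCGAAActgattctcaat
Irf1 (chr11:53769912-53769944, plus strand): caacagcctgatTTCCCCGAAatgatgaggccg
Psmb8 (chr17:34198086-34198118, plus strand): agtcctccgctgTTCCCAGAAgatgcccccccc
B2m (chr2:122147536-122147569, plus strand): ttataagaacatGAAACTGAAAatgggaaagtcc

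All 6 measured GTPases with a promoter entry (Gbp2, Gbp3, Gbp7, Irgm1, Irgm2 and Igtp) held ISRE letters, and Gbp7, Irgm2 and Igtp held GAS letters as well. Igtp and Irgm2, which neighbour each other in RefSeq, share 44 of the 45 bases shown, with the GAS letters before the ISRE letters and 2 bases between them. The GAS match begins 45 bases before the start of Igtp and 75 before that of Irgm2. In Gbp3 and Irgm1 a pair of ISRE matches overlaps, and so does a pair in Socs1, which is not a GTPase. Cxcl10 also held ISRE letters, and Ifng, Irf1 and Gzmb held GAS letters. Among the class I members, 8 of which had an entry, B2m held ISRE letters and Psmb8 GAS letters, and H2-K1, H2-D1, Tap1, Tapbp, Psmb9 and Psmb10 held neither.

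No member, of 33 measured, passed the test for a difference between stretched and non-stretched skin. Ifng, the receptor chains Ifngr1 and Ifngr2, and Cd274 (PD-L1, the ligand of the T cell checkpoint receptor PD-1) had the smallest p-values, all with higher means under stretch. The GBP and IRG effectors had wide and overlapping values in both groups. The TAP transporter, tapasin and the class I heavy chains had lower means under stretch, whereas the immunoproteasome subunits had higher means.

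The test was limma's moderated test, two-sided, with Benjamini-Hochberg adjustment over all 19505 genes at 0.05, which 48 genes (0.246%) passed, 0.082% higher and 0.164% lower. At 0.1, which no member passed either, 1.08% of all genes were called. The members' adjusted p-values lay between 0.221 and 0.998. At an unadjusted p under 0.05 there were 4 members (12.1% of 33), all higher, where 13.0% of all genes lay under it in either direction and 6.92% on the higher side. The groups did not overlap for 1 member, Ifngr2, against 4.54% of all genes (2.38% higher, 2.15% lower). The median log2 change of the members was 0.31 and that of all genes -0.0034, and 27 of 33 members had a positive change, against 49.6% of all genes. These figures depend on single arrays. Without no-stretch replicate 3, the lowest array for 22 of the 33 members (16.8% of all genes), the members' median change was -0.04, and 16 of 33 were positive. Without stretch replicate 3 the median was 0.057 with 20 positive, without stretch replicate 4 it was 0.20 with 21 positive, and with array weights 0.17 with 19 positive. For 26 of the 33 members the change moved by over 1.5 times or turned its sign when some single array was left out, and the 7 for which it did not were Ifng, Ifngr1, Ifngr2, Tbx21, Cd274, Tap1 and Prf1. Across genes, the median r of no-stretch replicate 3 with the remaining arrays was 0.975, the lowest, against 0.980 to 0.987 for the rest. Array weights were lowest for stretch replicate 1 (0.547) and no-stretch replicate 3 (0.579), against 0.758 to 1.58 for the rest.

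**Figure D1:**
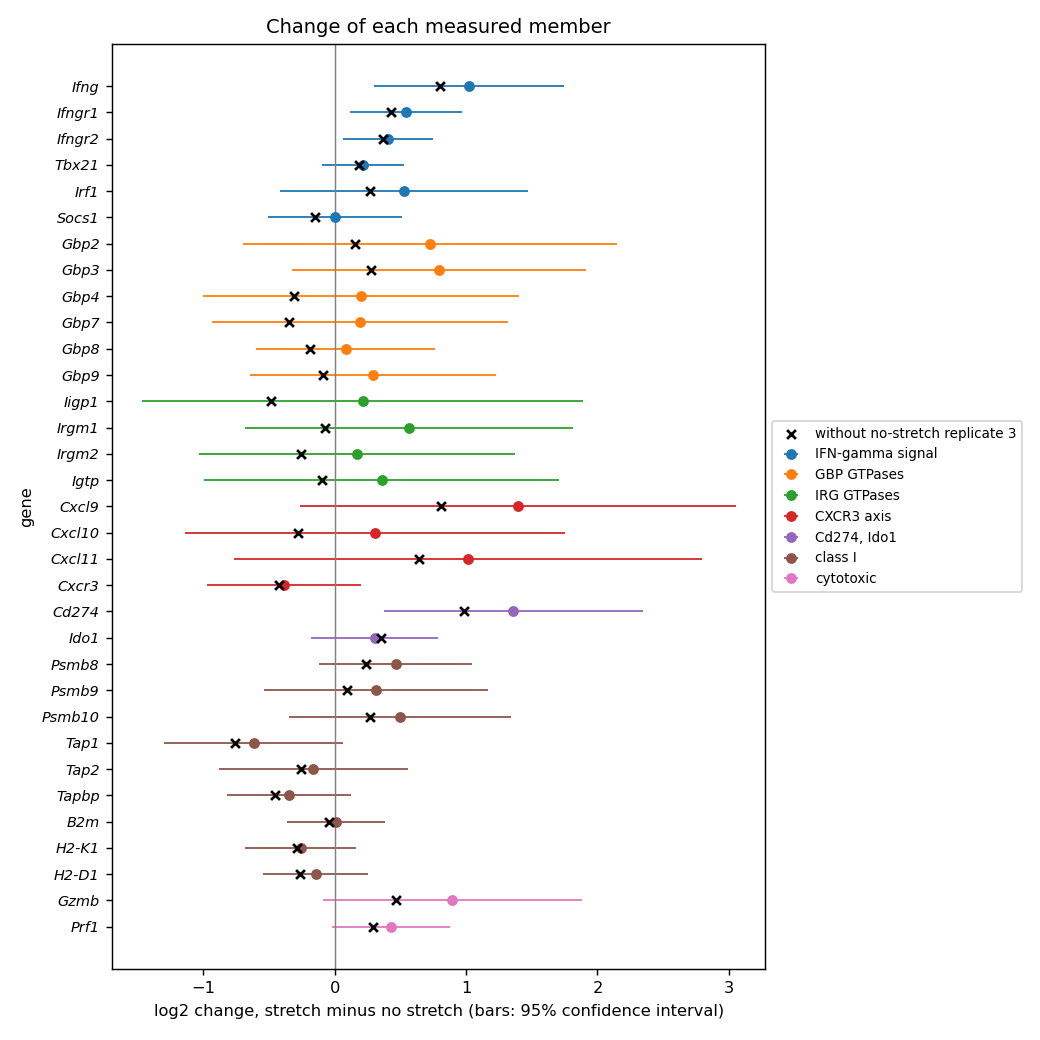
Log2 change, stretch minus no stretch, of each of the 33 measured members (points, coloured by role) with its 95% CI (bars). Crosses give the change without no-stretch replicate 3. The intervals of Ifng, Ifngr1, Ifngr2 and Cd274 lie above 0, and most crosses of the GBP and IRG genes lie at or below 0.

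Ifng itself had a 2.04-fold higher mean with stretch. By mean level it lay at percentile 41.5 of all genes, within the range of markers of other organs, which reached percentile 44.2. Ifng was at 5.20, 5.21, 6.36, 6.21 and 5.10 in stretch replicates 1 to 5 and at 4.40, 4.91, 3.93 and 5.12 in no-stretch replicates 1 to 4. Stretch replicates 3 and 4 stood highest, and the groups met at stretch replicate 5 and no-stretch replicate 4. The means were 5.62 ± 0.61 (SD, n = 5) and 4.59 ± 0.54 (SD, n = 4), a log2 change of 1.03 (SE 0.33, 95% CI 0.30 to 1.75, limma adjusted p = 0.221). An exact two-sided permutation of the difference over all 126 splits of the arrays gave an unadjusted p = 0.0238, where the smallest possible value is 0.00794. Leaving out single arrays moved the change between 0.80 and 1.20 and the permutation p between 0.0286 and 0.125, the highest without no-stretch replicate 3. Only 1 of these 9 permutation p-values lay under 0.05.

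Both receptor chains had higher means in stretched skin. The ligand-binding chain Ifngr1 was at 10.05, 10.33, 10.26, 10.10 and 10.58 with stretch and at 10.13, 9.50, 9.37 and 9.88 without, a log2 change of 0.54 (SE 0.20, limma adjusted p = 0.262). Only no-stretch replicate 1 reached into the stretched range. Ifngr2, the signalling chain, was at 10.97, 10.99, 11.34, 11.17 and 10.92 against 10.51, 10.77, 10.56 and 10.84. Every stretched array lay above every non-stretched array, by a small step, and the log2 change was 0.41 (SE 0.16, limma adjusted p = 0.302). Its spread within groups was low (SD 0.167, percentile 7.36). Tbx21, the T-bet factor that directs interferon-gamma production, had a log2 change of 0.21 (95% CI -0.10 to 0.53).

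Downstream of the receptor, Irf1 and Socs1 overlapped widely. Irf1, the transcription factor that relays the signal, ranged from 8.37 to 10.35 with stretch and from 8.41 to 10.19 without, with a log2 change of 0.53 (95% CI -0.41 to 1.47) that ran from 0.27, without no-stretch replicate 3, to 0.87, without stretch replicate 5. Its lowest value of all 9 arrays was in stretch replicate 5. Socs1, the feedback inhibitor of the JAK kinases, had a log2 change of 0.00072 (95% CI -0.51 to 0.51). Among 17 of 20 other genes of interferon-gamma signalling that were measured, none passed the test, 10 had a positive change, the median was 0.0097, and 4 lay under an unadjusted p of 0.05, all higher. The kinase gene Jak2 was at 12.48, 11.86, 11.73, 12.65 and 11.74 with stretch and at 11.42, 11.43, 10.57 and 11.38 without. Its groups did not overlap, and its log2 change was 0.89 (SE 0.26, limma adjusted p = 0.180). Socs3, a STAT3-induced inhibitor of cytokine signalling, had a log2 change of 1.53 (adjusted p = 0.165), and Il12a, the p35 subunit of IL-12, one of 0.58 (adjusted p = 0.285).

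**Figure D2:**
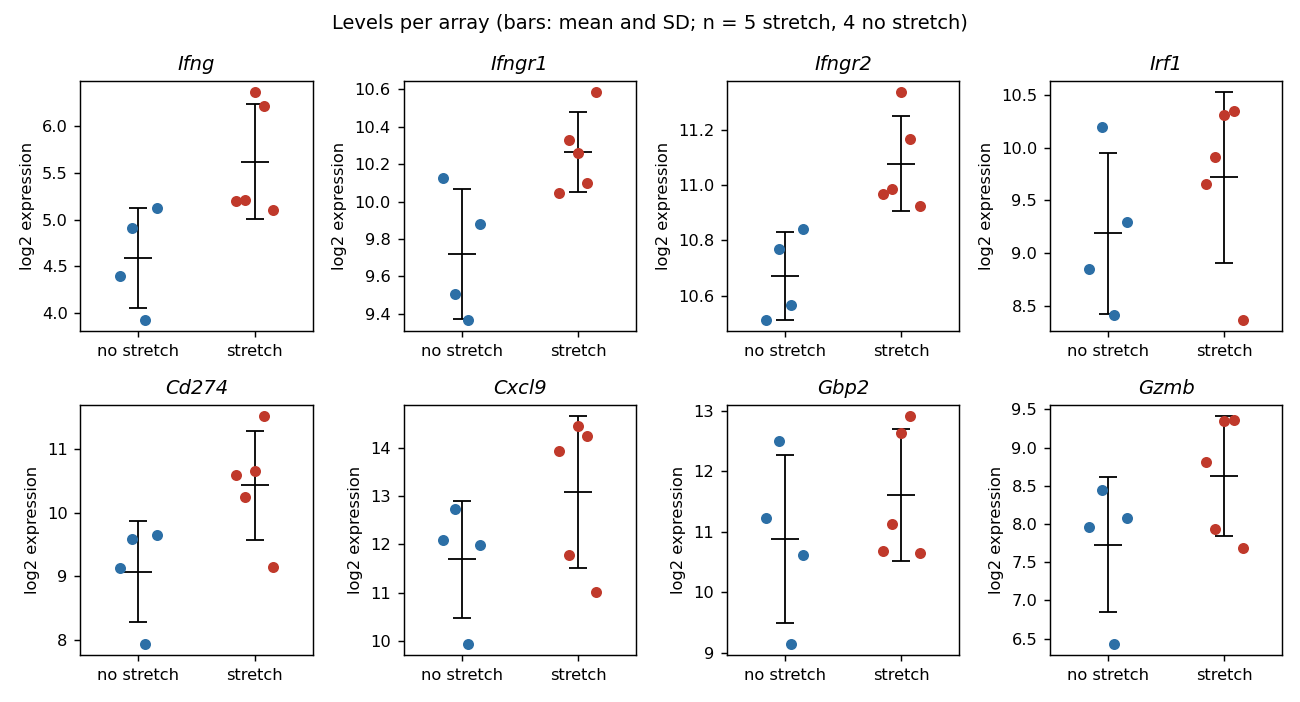
Log2 expression of 8 members on each array, for no stretch (blue, n = 4) and stretch (red, n = 5), with the mean and SD as black bars and a separate vertical scale per gene. Ifngr2 shows no overlap between the groups, and Ifng and Cd274 each have a single stretched array within the non-stretched range. In Irf1 and Gbp2 the groups overlap, with 2 stretched arrays of each gene above the non-stretched range.

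The GTPases are cell-autonomous effectors: GBPs and IRGs coat and disrupt the vacuoles of intracellular microbes. All 10 that were measured had positive changes, from 0.08 (Gbp8) to 0.79 (Gbp3) with a median of 0.25, none had an unadjusted p under 0.05, and only 2 of 10 stayed positive without no-stretch replicate 3, where the median was -0.14. Gbp3 was at 12.17, 12.03, 13.50, 13.51 and 12.19 with stretch and at 12.09, 13.14, 10.33 and 11.98 without (log2 change 0.79, limma adjusted p = 0.548), and its change was 0.27 without no-stretch replicate 3. Gbp2, at 10.69, 11.13, 12.63, 12.91 and 10.66 against 11.23, 12.50, 9.16 and 10.62, had a log2 change of 0.73 (SE 0.65), and of 0.16 without no-stretch replicate 3. Within the non-stretched group Gbp2 thus spanned 3.34, several times its difference between the groups. Gbp9 was at 9.75, 9.86, 11.50, 11.07 and 10.28 against 10.38, 10.97, 9.06 and 10.40, with a log2 change of 0.29. Gbp4, Gbp7 and Gbp8 had log2 changes of 0.20, 0.19 and 0.08.

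As in the GBPs, the IRG members had stretch replicates 3 and 4 and no-stretch replicate 2 as their highest arrays and no-stretch replicate 3 as their lowest. Irgm1, a regulator of the other IRG proteins, was at 12.51, 12.04, 13.12, 12.88 and 11.61 with stretch and at 12.28, 13.48, 9.95 and 11.76 without, a log2 change of 0.57 (SE 0.57, limma adjusted p = 0.716). Igtp (Irgm3) was at 10.08, 9.67, 12.28, 11.29 and 9.63 against 10.33, 11.67, 8.86 and 10.07, a log2 change of 0.36. Irgm2 was at 8.74, 8.64, 10.63, 9.74 and 8.42 against 9.38, 10.46, 7.78 and 8.63, a log2 change of 0.17. Iigp1, an effector IRG, ranged from 8.43 to 11.49 with stretch and from 7.45 to 11.37 without, with a log2 change of 0.21. Sequence similarity within these families can let a probe set read a relative, and this was not assessed.

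In all 10 GTPases the 3 highest arrays were stretch replicate 3, stretch replicate 4 and no-stretch replicate 2, and the lowest was no-stretch replicate 3. This order, which was read from the same data, was shared by 96 of all genes (0.492%) and by 11 of the 33 members, the GTPases and Psmb10. The mean of the 10 GTPases relative to the non-stretched mean was 1.39 and 1.12 on stretch replicates 3 and 4 and 1.30 on no-stretch replicate 2. In no-stretch replicate 3 it was -1.50, and it lay between -0.34 and 0.26 on the remaining arrays. Spread within groups was high for these genes, with a median SD of 1.03, against 0.32 for all genes. Of the 33 members, 15 had a within-group SD above the 95th percentile of all genes. Genes of the type I interferon list followed a similar course, with list means of 1.36 and 0.50 on stretch replicates 3 and 4 and of 1.11 and -1.19 on no-stretch replicates 2 and 3, and 12 of its 28 measured genes showed the order of the GTPases. In that list the median change was 0.09, none passed the test and 1 lay under an unadjusted p of 0.05 (Ifnar2, a receptor chain, log2 change 0.82). Without no-stretch replicate 3 the list's median was -0.35, with 7 of 28 positive. Irf9 had a log2 change of -0.70 (-0.46 without stretch replicate 1). Rsad2 had one of 1.12, which was 0.43 without no-stretch replicate 3 and 0.59 without stretch replicate 3.

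**Figure D3:**
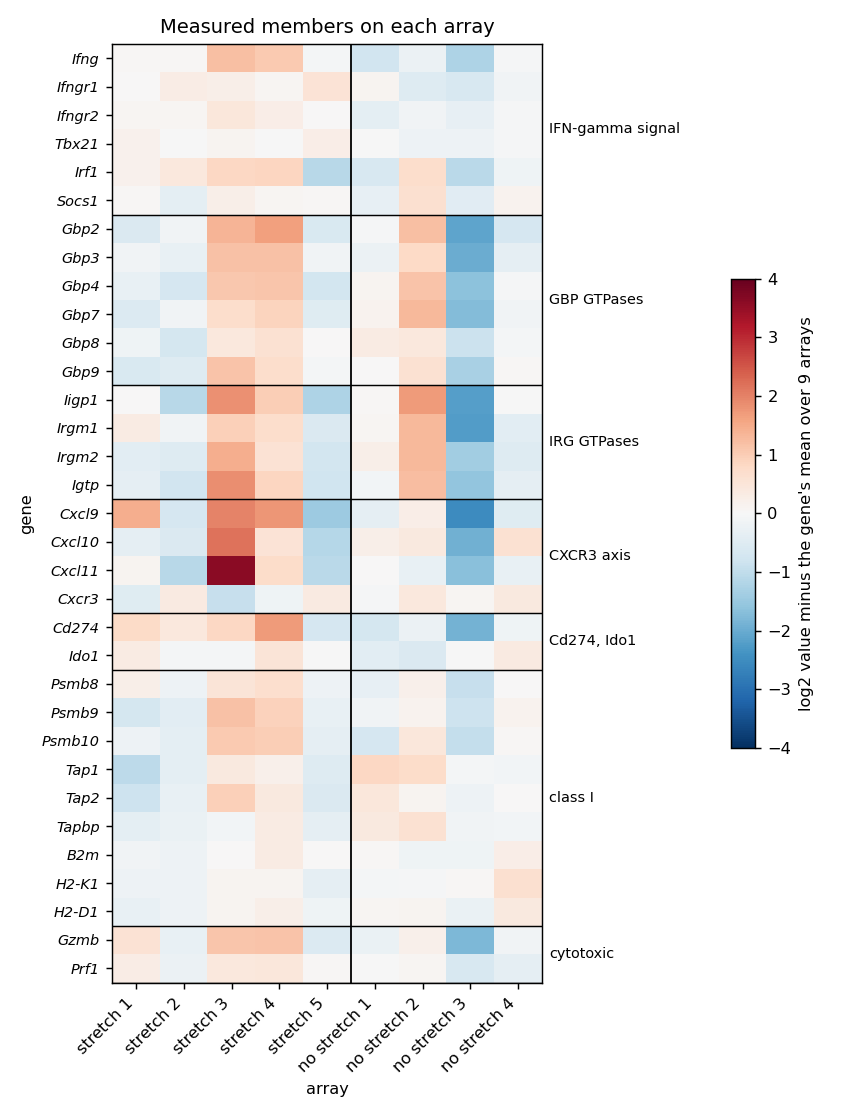
Log2 value of each measured member on each array minus that gene's mean over all 9 arrays (colour), with members grouped by role and a vertical line between stretch and no stretch. The GBP and IRG rows are red in stretch replicates 3 and 4 and no-stretch replicate 2 and blue in no-stretch replicate 3, whereas B2m, H2-K1 and H2-D1 are pale throughout.

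The 3 ligands of Cxcr3, which draw activated T cells into inflamed skin, had higher means with stretch and a wide spread. Cxcl9, induced chiefly by interferon-gamma, was at 13.94, 11.79, 14.46, 14.24 and 11.01 with stretch and at 12.10, 12.75, 9.94 and 11.99 without. Stretch replicates 1, 3 and 4 lay above all non-stretched arrays, and replicates 2 and 5 lay within their range. The log2 change was 1.39 (SE 0.76, 95% CI -0.26 to 3.05, limma adjusted p = 0.474), and 0.81 without no-stretch replicate 3. Cxcl11 was at 8.10, 6.90, 11.60, 8.74 and 6.92 against 8.03, 7.71, 6.32 and 7.69, a log2 change of 1.01 that was 0.23 without stretch replicate 3. Cxcl10 ranged from 7.58 to 10.89 against 6.78 to 9.31, with a log2 change of 0.30 that was -0.28 without no-stretch replicate 3. For the receptor gene Cxcr3 the sign was opposite: it was at 4.84, 5.68, 4.38, 5.13 and 5.68 against 5.26, 5.73, 5.40 and 5.71, a log2 change of -0.39 (SE 0.27), and of -0.19 without stretch replicate 3. The array with the highest level of all 3 ligands, stretch replicate 3, had the lowest level of Cxcr3.

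Cd274 had the second largest change among the members. It was at 10.59, 10.25, 10.65, 11.52 and 9.15 with stretch and at 9.12, 9.58, 7.94 and 9.65 without, so that stretch replicate 5 alone fell within the non-stretched range. This is a 2.57-fold higher mean, or a log2 change of 1.36 (SE 0.45, 95% CI 0.37 to 2.35, limma adjusted p = 0.228). The change lay between 0.98 and 1.68 when single arrays were left out. Ido1, the tryptophan-degrading enzyme induced by interferon-gamma, was at 3.44, 3.02, 3.05, 3.62 and 3.11 against 2.68, 2.54, 3.10 and 3.46, near the low end of the array's scale, with a log2 change of 0.31 (0.17 without no-stretch replicate 2).

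None of the 9 measured class I members passed the test, their groups all overlapped, and differences between steps of the pathway were not tested. The immunoproteasome subunits Psmb8, Psmb9 and Psmb10, which replace constitutive subunits to alter peptide cleavage, had log2 changes of 0.46, 0.31 and 0.49. Without no-stretch replicate 3 these were 0.24, 0.09 and 0.27, and without stretch replicate 3 that of Psmb9 was 0.057. Psmb8 was at 10.89, 10.45, 11.17, 11.32 and 10.47 with stretch and at 10.33, 10.86, 9.72 and 10.68 without (limma adjusted p = 0.498). Values of Psmb8 overlapped, with no-stretch replicate 3 the lowest. Of 13 measured constitutive proteasome subunits 12 also had a positive change, with a median of 0.27 and none past the test, and the largest was 0.64 for Psma7 (adjusted p = 0.230), followed by Psma4 (0.45) and Psmb4 (0.39).

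At the peptide-loading step the signs were negative. Tap1, a subunit of the transporter that carries peptides into the endoplasmic reticulum, was at 11.53, 12.17, 12.95, 12.77 and 12.06 with stretch and at 13.39, 13.32, 12.49 and 12.46 without. Stretch replicates 1, 2 and 5 lay below every non-stretched array. The log2 change was -0.62 (SE 0.31, 95% CI -1.30 to 0.07, limma adjusted p = 0.435), and it lay between -0.78 and -0.42 without single arrays. Tapbp (tapasin, which bridges TAP and class I) was at 11.74, 11.86, 12.03, 12.44 and 11.78 against 12.52, 12.75, 11.998 and 12.001, a log2 change of -0.35 (SE 0.22), and of -0.20 without no-stretch replicate 2. Tap2, the partner of Tap1, had a log2 change of -0.16 that turned to 0.02 without stretch replicate 1.

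Among the class I members, the heavy chains and their light chain had the lowest spread within groups. The light chain B2m ranged from 18.97 to 19.52 with stretch and from 19.01 to 19.46 without, close to the highest value in the table, 19.93. Its log2 change was 0.0091 (95% CI -0.37 to 0.38), and -0.23 after quantile normalization. H2-K1 ranged from 16.86 to 17.34 against 17.15 to 17.87, a log2 change of -0.26 (-0.68 to 0.16) that was -0.09 without no-stretch replicate 4, and H2-D1 from 15.14 to 15.69 against 15.18 to 15.84, a log2 change of -0.15 (-0.55 to 0.26) that was -0.04 without the same array. Within-group SDs of these 3 genes lay between 0.21 and 0.27, under the median of all genes. The heavy-chain genes are close relatives and the array may not separate them fully. Of 18 other measured class I genes, 13 had a negative change, with a median of -0.13, none passed the test and 1 lay under an unadjusted p of 0.05. That gene, the non-classical H2-T22, had a log2 change of -0.79 (adjusted p = 0.312), and without single arrays it lay between -1.09 and -0.66 with adjusted p from 0.0293, without stretch replicate 3, to 0.478. H2-T10 had a log2 change of -0.67, and Canx, the chaperone calnexin, one of -0.34.

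**Figure D4:**
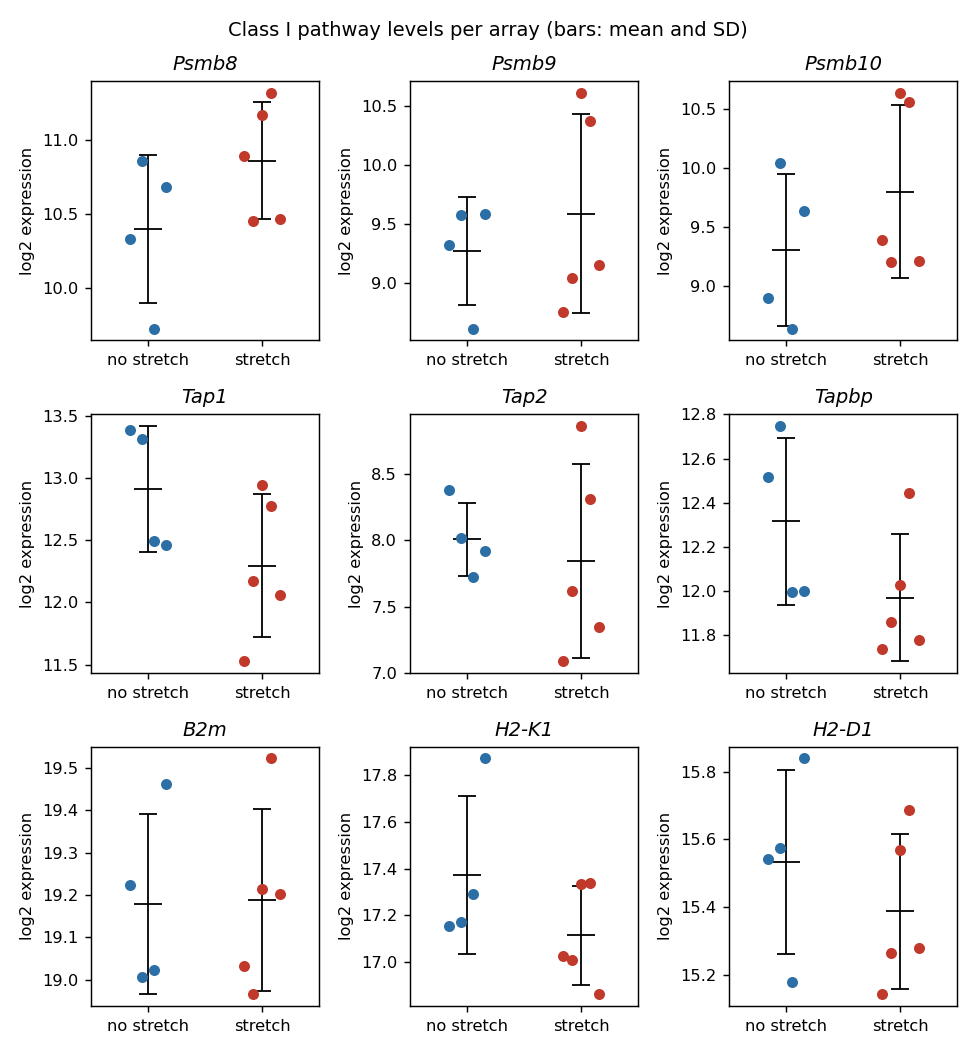
Log2 expression of the 9 measured class I members on each array, for no stretch (blue, n = 4) and stretch (red, n = 5), with the mean and SD as black bars and a separate vertical scale per gene. Means are higher with stretch for the 3 Psmb genes and lower for Tap1, Tap2, Tapbp, H2-K1 and H2-D1, and the groups overlap in all 9.

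Tap1 and Psmb9 lie next to each other and are transcribed away from each other, and their changes had opposite signs. In RefSeq 225 bases separate their starts (chr17:34187331-34187555 of GRCm38.p6, written on the strand of Tap1), and they hold neither of the searched motifs.
Tap1-Psmb9: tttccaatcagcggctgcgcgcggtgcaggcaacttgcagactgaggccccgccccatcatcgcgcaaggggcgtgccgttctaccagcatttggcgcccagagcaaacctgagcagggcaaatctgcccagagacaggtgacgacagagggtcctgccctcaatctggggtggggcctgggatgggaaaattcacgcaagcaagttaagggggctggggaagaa

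On each array the Tap1 value minus the Psmb9 value was 2.77, 3.14, 2.33, 2.40 and 2.91 with stretch and 4.07, 3.74, 3.88 and 2.88 without. Means of this difference were 2.71 ± 0.34 (SD, n = 5) and 3.64 ± 0.53 (SD, n = 4), and the ranges overlapped only through no-stretch replicate 4. The pair was chosen after its values were seen, and its difference was not tested.

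The cytotoxic effectors had higher means with stretch. Gzmb, granzyme B of cytotoxic T and natural killer cells, was at 8.81, 7.93, 9.35, 9.36 and 7.69 with stretch and at 7.96, 8.44, 6.44 and 8.08 without. Replicates 1, 3 and 4 of the stretched group lay above all non-stretched arrays. Its log2 change was 0.90 (SE 0.45, 95% CI -0.09 to 1.88, limma adjusted p = 0.432), and 0.47 without no-stretch replicate 3. Prf1, the pore-forming protein perforin, was at 5.40, 4.87, 5.53, 5.55 and 5.17 against 5.10, 5.18, 4.48 and 4.75, a log2 change of 0.43 (SE 0.21, adjusted p = 0.411).

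Markers of the cells that make or answer interferon-gamma were read beside these values. In bulk skin, fewer cells of a type and less RNA per cell cannot be told apart. Of 10 measured T cell markers 9 had a negative change, with a median of -0.22, and the list mean per array relative to the non-stretched mean ran from -0.48 to -0.06 with stretch and from -0.20 to 0.23 without. Cd4 was at 7.47, 7.33, 6.68, 6.37 and 7.32 against 7.34, 8.11, 8.46 and 7.84, a log2 change of -0.90 (limma adjusted p = 0.208), while Cd3e and Cd8a had log2 changes of -0.29 (-0.08 without no-stretch replicate 2) and -0.32 (-0.18 without stretch replicate 5). Of 12 natural killer and cytotoxic markers 9 had a positive change (median 0.18), with list means from -0.08 to 0.70 against -0.25 to 0.14, and Ncr1, an activating natural killer receptor, had a log2 change of 0.45 (0.24 without no-stretch replicate 3). Macrophage markers were positive in 10 of 11 (median 0.55), with list means from -0.08 to 1.59 against -0.75 to 0.64 and a log2 change of 0.34 for Adgre1 (0.10 without stretch replicate 1). Neutrophil markers were positive in 11 of 11 (median 0.96), with list means from 0.93 to 2.02 against -0.40 to 0.36, which did not overlap, and a log2 change of 0.59 for S100a8 (0.28 without stretch replicate 3). Keratinocyte, fibroblast and dendritic cell markers mostly had lower means, and endothelial markers mostly higher ones. Of 10 keratinocyte markers 8 had a negative change (median -0.42), with list means from -1.08 to -0.04 against -0.14 to 0.25, and 5 lay under an unadjusted p of 0.05, 3 lower and 2 higher. Of 12 dendritic cell markers 10 had a negative change (median -0.58), with list means from -0.80 to -0.22 against -0.23 to 0.20 and 5 under an unadjusted p of 0.05, all lower. All 6 measured fibroblast markers had a negative change (median -0.85), with list means from -1.22 to -0.69 against -0.15 to 0.17, and 1 of them passed the test (adjusted p = 0.0253, limma). Of 6 endothelial markers 4 had a positive change (median 0.40), with list means from -0.29 to 0.60 against -0.50 to 0.22. An unadjusted p under 0.05 was also found for 6 of 11 neutrophil and 3 of 11 macrophage markers, all higher, and for 4 of 6 fibroblast markers, all lower. It was found for 1 T cell marker (lower), 1 natural killer and cytotoxic marker (higher) and 2 endothelial markers (1 higher, 1 lower). Among all genes the share was 13.0%, 6.92% higher and 6.07% lower. The part of these cell types in the members' values was not tested. By mean level, the 10 keratinocyte markers lay at or above percentile 78.1 of all genes and markers of other organs at or below percentile 44.2. Ifng (41.5), Tbx21 (20.2), Socs1 (32.4), Cxcr3 (43.2), Prf1 (41.1), Cd3e (40.3) and Cd8a (40.7) also lay below percentile 44.2, so their changes rest on low values.

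**Figure D5:**
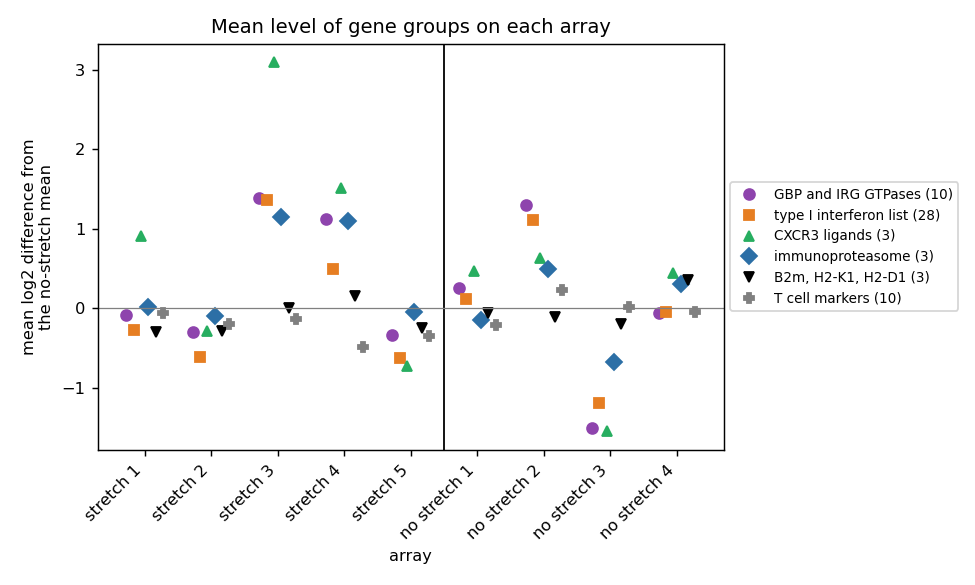
Mean log2 difference from the non-stretched mean on each array (number of genes in brackets in the key), for the GTPases, the type I interferon list, the Cxcr3 ligands, the immunoproteasome, the class I chains and T cell markers, with a vertical line between the groups. GTPases and type I genes are high on the third stretched and the second non-stretched array (1.39 and 1.30 for the GTPases) and low in no-stretch replicate 3 (-1.50), while class I chains lie between -0.29 and 0.36 and T cell markers between -0.48 and 0.23.

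Other known targets of interferon-gamma outside the members, 17 of 22 measured, gave no gene past the test, 15 positive changes and a median of 0.43, and 10 positive with a median of 0.05 without no-stretch replicate 3. An unadjusted p under 0.05 was found for 5 of them, 4 higher and 1 lower. Acod1, which makes the macrophage metabolite itaconate, was at 9.05, 12.23, 7.82, 11.50 and 9.87 with stretch and at 6.07, 7.25, 4.37 and 6.73 without. Its groups did not overlap, and it was 15.9-fold higher (log2 change 3.99, SE 0.83, limma adjusted p = 0.0756), and without single arrays the change lay between 3.41 and 4.56 with adjusted p from 0.0234, without stretch replicate 3, to 0.229. Nos2, the inducible nitric oxide synthase, had a log2 change of 1.78 (SE 0.49, adjusted p = 0.165). For Icam1, an adhesion molecule for leukocytes, the groups did not overlap and the log2 change was 0.59 (SE 0.17, adjusted p = 0.173). Acod1, Nos2, Icam1 and Socs3 are also induced by Toll-like receptor, NF-kB or STAT3 signals.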

How the data were processed

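The deposited table holds log2 expression values for 22206 features on 9 arrays, for which the authors used RMA and Transcriptome Analysis Console, per the submitters' processing notes, without versions. Total RNA (6 ug) was made into biotinylated cRNA, per the labels' protocols. For the genome build, filters and detection calls: not given in the sources used here. RMA can compress low values. The number of arrays limits the precision. Gene names came from the platform table (19572 features with 1 symbol, none with several, 2634 unnamed). No 2 arrays were identical. Differences were stretch minus no stretch by lmFit and eBayes of limma 3.58.1 (R 4.3.3), with no covariate, adjusted over 19505 genes; the code was tested on simulated data. Ifng was also tested by exact permutation. Alternatives were scaling, a filter on dim genes, feature averaging, array weights, a trended robust variance, a block for the replicate number, an adjusted p of 0.1 and leaving out arrays.

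Members and lists were chosen with earlier results of these data known. Every member is accounted for; per-array values are given for Ifng and the up to 3 members of smallest p in each role, and the genes named outside them are the up to 3 of smallest p in each list and 6 preset markers, mostly by their changes alone. The pair Tap1 and Psmb9 was chosen after its values were seen.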

Additional observations from a re-analysis of the deposited data

Results flagged for a closer look

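A single array lay far from the rest of its group in 7 of 108 groups of values examined (33 members and 21 other named genes, in both groups), by Dixon's test at 95%; chance alone flags about 1 in 20. No-stretch replicate 3 was the low value for Cxcl10 (6.78, against 8.95 to 9.31 on the other non-stretched arrays), Jak2 (10.57, against 11.38 to 11.43) and Rsad2 (5.43, against 8.02 to 8.48). In no-stretch replicate 2, H2-T22 was high (12.99, against 12.55 to 12.62) and Canx low (14.24, against 14.64 to 14.72). Stretch replicate 3 was the high value for Il12a (5.26, against 4.22 to 4.52) and Ncr1 (8.03, against 6.87 to 7.19).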

How the results depend on the processing

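No member passed an adjusted p of 0.05 under any alternative, and at 0.1 Cd274 alone did, with the replicate number as a block (adjusted p = 0.0523, limma), while the smallest adjusted p of a member lay between 0.125 and 0.471 when single arrays were left out. The members' median change ran from -0.04 (without no-stretch replicate 3) to 0.55 (without no-stretch replicate 2). Of 33 members, 21 kept their direction under every alternative run. All genes past the threshold numbered 48, and 2 to 195 when single arrays were left out, 75 after quantile normalization, 112 without genes under the 40th percentile, 157 with array weights, 211 at an adjusted p of 0.1 and 15 when stretch replicate 1 and no-stretch replicate 3 were both dropped. Whether the replicate numbers pair the samples could not be settled. Correlations of same-numbered arrays ran from -0.06 to 0.34, and those of differently numbered arrays from -0.35 to 0.16. With the replicate number as a block, which drops stretch replicate 5 from the comparison, 221 genes and 0 members passed, and Socs1 had a change of -0.010. The permutation p of Ifng was 0.0286 to 0.125 without single arrays and 0.143 without both arrays. With array weights the change was negative for Socs1 (-0.10), Gbp4 (-0.12), Gbp7 (-0.069), Gbp8 (-0.051), Iigp1 (-0.32), Irgm2 (-0.10), Cxcl10 (-0.17) and B2m (-0.018), and after quantile normalization for B2m (-0.23). Without both arrays it was negative for Socs1 (-0.16), Gbp4 (-0.21), Gbp7 (-0.19), Gbp8 (-0.13), Iigp1 (-0.47), Irgm1 (-0.093), Irgm2 (-0.14), Cxcl10 (-0.16), B2m (-0.0037) and Adgre1 (-0.11). Leaving out single arrays moved Socs1 between -0.15 and 0.21, Gbp4 between -0.31 and 0.61, Gbp7 between -0.35 and 0.66, Gbp8 between -0.19 and 0.26, Gbp9 between -0.089 and 0.55, Iigp1 between -0.49 and 0.82, Irgm1 between -0.07 and 1.10, Irgm2 between -0.26 and 0.64, Igtp between -0.10 and 0.84, Cxcl10 between -0.28 and 0.62, Tap2 between -0.42 and 0.025, Adgre1 between 0.10 and 0.60, and B2m between -0.074 and 0.10. The causes were not tested.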

Other observations

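The array order of the GTPases, with stretch replicates 3 and 4 and no-stretch replicate 2 highest and no-stretch replicate 3 lowest, was found in 96 genes, 65 of them outside every list used here. It held in 6 of 17 other interferon-gamma targets: Fcgr1 (the high-affinity IgG receptor), Batf2, Tgtp2, Gm12250, Parp14 and Wars. Gm12250 neighbours the member Igtp in RefSeq, and whether probe sets of these targets read a relative was not assessed. The order also held in 12 of 28 type I interferon genes, among them Ifit3, Irf7, Usp18 and Zbp1. It held as well in Psme1, a subunit of the proteasome activator PA28. Among the cell type markers, Cd3d (1 of 10 T cell markers) and Fcgr1 (1 of 11 macrophage markers) had the order. None of the 12 natural killer and cytotoxic, 11 neutrophil, 12 dendritic cell, 10 keratinocyte, 6 fibroblast or 6 endothelial markers did. Only 0.492% of all genes showed the order, so its absence from lists this short says nothing about those cell types. The order was read from these data and was not tested.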
